A study of Mus musculus with 6 samples.

Results

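The TRIM genes encode the tripartite motif proteins, a large family of ubiquitin ligases. The 58 genes described here were taken by name, as every gene whose only symbol on a probe set is Trim, a number and optional letters, out of 19938 genes measured. Each of the 58 had a single probe set, so no choice among probe sets was needed for them. The mouse RefSeq gene table lists 68 such symbols, and the other 10 had no probe set of their own.

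A TRIM protein joins a RING finger, which hands ubiquitin to a substrate, to B-box zinc fingers and a coiled coil through which the proteins pair. The C-terminal part differs between classes and picks the substrate: a PRY-SPRY domain in the largest class, a PHD finger with a bromodomain in the chromatin regulators, NHL repeats or a membrane anchor in others. In myeloid cells the family is best known for acting on viral sensors and on the NF-kB pathway, and many members are induced by interferon.

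The values come from 6 Affymetrix Mouse Gene 1.0 arrays of unstimulated bone marrow cells from C57B/6 mice, kept for 6 days with GM-CSF at 20 ng/ml. The labels assign 3 arrays to a dendritic population (GM-DC) and 3 to a macrophage population (GM-MF) of that culture, which share strain, culture and cytokine. How the populations were separated is not stated in the labels, nor whether replicates came from separate mice, so p-values measure the spread between these arrays, which may be technical. Values are log2 RMA intensities, every difference is dendritic minus macrophage, and a gene is called at a limma adjusted p under 0.05 with adjustment over all genes.

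The populations carried the markers of their labels. Of 10 dendritic markers 9 were higher in the dendritic arrays and 1, the integrin Itgax, was lower, while all 9 measured macrophage markers were lower. Neutrophil markers averaged 6.09 to 6.89 over the dendritic arrays and 6.09 to 7.20 over the macrophage arrays, highest on replicate 1 of each, and 1 of 11 was called. Of the markers of erythroid, mast, eosinophil, B, T and NK and plasmacytoid cells, between 5 and 9 per list were measured and 1 per list was called. In that order the called markers were Tfrc (-1.70), Kit (2.77), Ear6 (-1.11), Cd79a (0.81), Cd8a (2.81) and Bst2 (1.89). In such bulk samples fewer cells of a type and less RNA per cell cannot be told apart.

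Of the TRIM genes 48 were not called, and 3 of the 10 called differed by more than 2-fold. Of the 58 genes 7 were higher in the dendritic population (Trim7, Trim35, Trim24, Trim59, Trim62, Trim33 and Trim28) and 3 were lower (Trim13, Trim36 and Trim37). The 10 called genes are 17.2% of the family, where 21.6% of all genes were called. In single directions 12.1% of the family was higher, where 9.98% of all genes were, and 5.17% was lower, where 11.6% of all genes were. The family as a whole is thus called no more often than other genes, and the account below is of its members. Without dendritic replicate 1 the counts were 4 higher (6.9%, where 10.6% of all genes were) and 7 lower (12.1%, where 12.6% were). In the fit blocked on replicate number they were 8 higher (13.8%, where 12.2% were) and 6 lower (10.3%, where 13.9% were).

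The median difference was 0.06 over the family and 0.03 over all genes. For 45 of the 58 genes (77.6%) the difference was under 0.5 in size, as for 77% of all genes. The median size of the difference was 0.24 over the family and 0.18 over all genes. Among the 48 genes not called, the 95% interval lay within 1 log2 unit on either side of 0 for 44. For 18 TRIM genes (31.0%) all values of 1 population lay above all of the other, as for 34.0% of all genes.

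**Figure D1:**
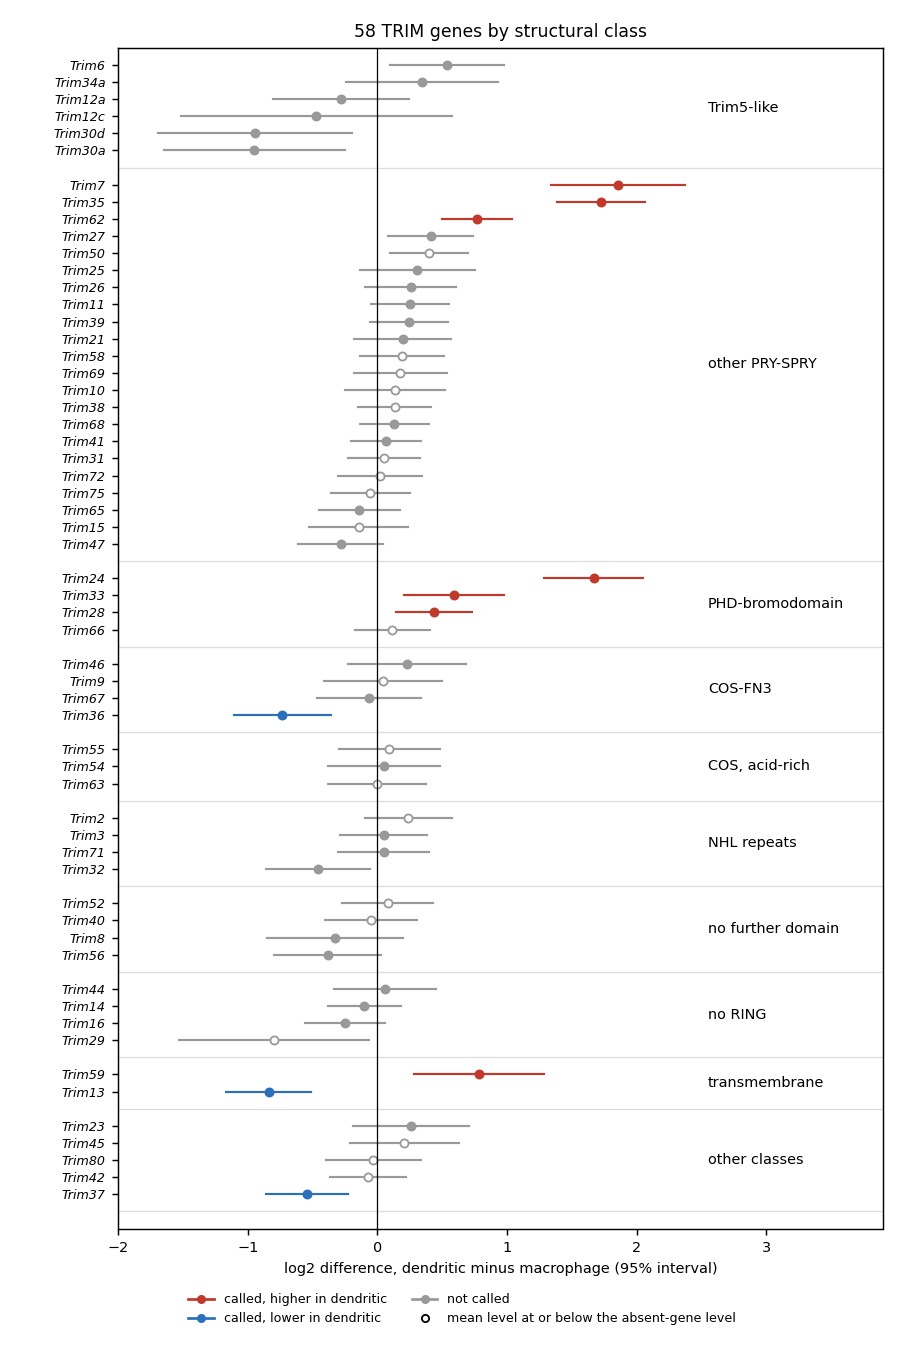
Log2 difference (dendritic minus macrophage) of each of the 58 TRIM genes with its 95% interval, ordered within structural classes; colour marks called genes, and open points have a mean level over the 6 arrays at or below the absent-gene level of 4.63. Trim7, Trim35 and Trim24 lie beyond 1 to the right, no gene lies beyond 1 to the left, and no open point is called.

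The table holds no detection calls. As a stand-in, the 95th percentile of the mean levels of 1190 olfactory and vomeronasal receptor genes, which belong to sensory neurons, was taken as an absent-gene level (log2 4.63). Probe sets differ in brightness, so this is a coarse guide. By it 38 TRIM genes lay above the level and 20 at or below. All 10 called genes were among the 38 (26.3%), where 33.6% of all genes above the level were called, 15.3% higher and 18.3% lower. The mean was taken over both populations, so a gene can pass through 1 of them. Trim7 passed by its dendritic mean of 5.80, while its macrophage mean was 3.94. None of the 20 dim genes was called by limma on all 6 arrays, and 2 of them had an unadjusted p under 0.05 (Trim50 and Trim29). Trim50 and Trim29 were each called in 2 alternative analyses. Calls were rare among dim genes in general: 11987 of all 19938 genes lay above the level, and so did 4029 of the 4312 called. The lack of calls among the 20 is therefore no trait of the family. The dim genes include the muscle RING finger gene Trim63 and its relative Trim55, the erythroid genes Trim10 and Trim58, and the neuronal gene Trim9, as well as Trim2, Trim15, Trim31, Trim38, Trim40, Trim42, Trim45, Trim52, Trim66, Trim69, Trim72, Trim75 and Trim80.

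The largest difference was that of Trim7, a PRY-SPRY ligase first found as a partner of glycogenin, the primer of glycogen synthesis. Trim7 (probe set 10375503) had log2 values of 6.23, 5.50 and 5.67 in the dendritic arrays, against 3.65, 3.87 and 4.31 in the macrophage arrays. All dendritic arrays lay above the absent-gene level and all macrophage arrays below it. The difference was 1.86 ± 0.23 (SE, n = 3 each), or 3.62-fold on this scale (limma adjusted p = 0.000368). RMA compresses differences of dim probe sets, so this fold is no measure of transcript number.

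Trim35 is a PRY-SPRY ligase also named Hls5, for its link to the switching of haemopoietic lineage. Trim35 (probe set 10416082) had 8.35, 7.98 and 8.43 in the dendritic arrays, against 6.57, 6.59 and 6.42 in the macrophage arrays. It was clearly above the absent-gene level on all 6 arrays. The difference was 1.73 ± 0.15, or 3.31-fold (limma adjusted p = 4.72e-05), with a 95% interval from 1.39 to 2.07.

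Trim24, or TIF1-alpha, is a chromatin reader that binds nuclear receptors and p53. Trim24 (probe set 10537318) had 7.39, 7.12 and 7.65 in the dendritic arrays, against 5.53, 5.72 and 5.90 in the macrophage arrays. Every dendritic array was above every macrophage array by more than the spread within either population. The difference was 1.67 ± 0.17, or 3.18-fold (limma adjusted p = 0.000112). Trim7, Trim35 and Trim24 were the only TRIM genes called with a difference of at least 2-fold, 5.17% of the family, where 10.3% of all genes were. They were also the 3 that passed a test against a log2 difference of 0.5, and they kept their call in all 17 alternative analyses that tested them, except that Trim7 fell below the filter in 1 and was not tested there.

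**Figure D2:**
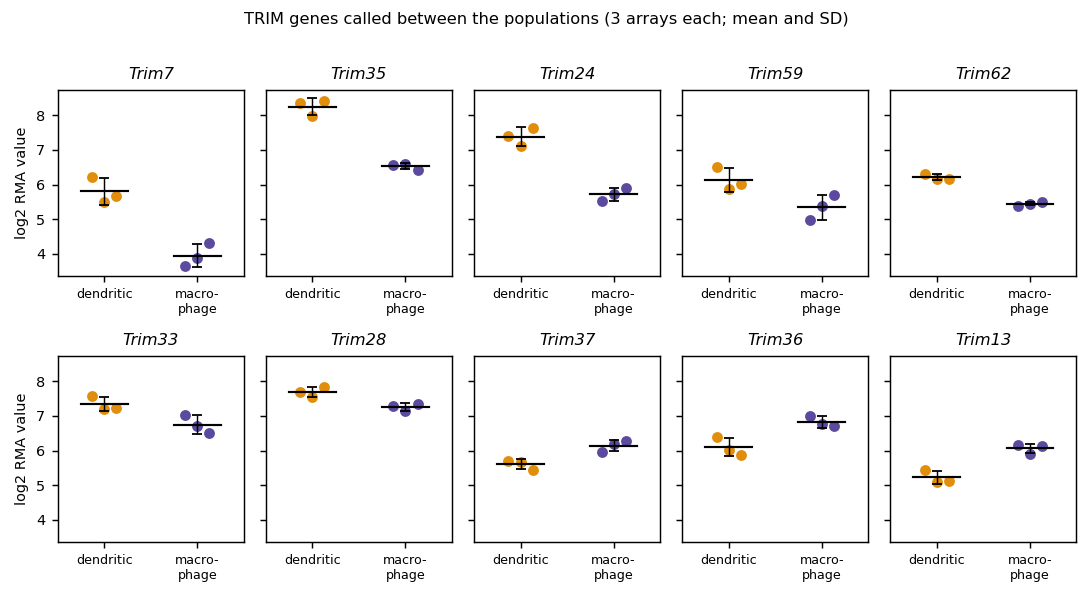
Log2 RMA value of the 10 called TRIM genes on each array, 3 dendritic (left) and 3 macrophage (right), with mean and SD. In every panel the populations do not overlap; Trim7, Trim35 and Trim24 are separated most, and Trim37, Trim36 and Trim13 are lower in the dendritic arrays.

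Of one structural class 3 of 4 genes were called higher. The class with a PHD finger and a bromodomain holds the transcriptional intermediary factors Trim24, Trim28 and Trim33 and the testis gene Trim66. Trim24, Trim28 and Trim33 were higher and Trim66 was not called, with a median difference of 0.51, where 9.98% of all genes, and 15.3% of those above the absent-gene level, were higher. Trim28, or KAP1, is the corepressor through which KRAB zinc finger proteins silence retroelements, and it recruits the histone methyltransferase Setdb1 and heterochromatin protein 1.

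Trim28 (probe set 10550076) had 7.70, 7.56 and 7.83 in the dendritic arrays, against 7.27, 7.15 and 7.36 in the macrophage arrays. The groups did not overlap but were close, with a difference of 0.44 ± 0.13 (limma adjusted p = 0.0423). Trim33, or TIF1-gamma, which acts on Smad4 in TGF-beta signalling, had 7.57, 7.21 and 7.24 in the dendritic arrays, against 7.03, 6.71 and 6.51 in the macrophage arrays. Its difference was 0.59 ± 0.17 (limma adjusted p = 0.0360). Trim66 was dim and differed by 0.11 ± 0.13 (limma adjusted p = 0.677). The calls of Trim28 and Trim33 were each near the threshold: Trim28 was called in 8 and Trim33 in 10 of the 17 alternatives, always in the same direction. Leaving out 1 array left 1 or 2 called genes in this class: Trim24 alone without dendritic replicate 1 or 3 or macrophage replicate 2 or 3, and Trim24 with 1 other without dendritic replicate 2 or macrophage replicate 1.

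Promoters are shown for the members of this class that have an entry in the RefSeq promoter table and were called higher, Trim24 and Trim28. Each stretch is the 150 bases just upstream of the annotated start (GRCm38.p6), 5′ to 3′ on the gene's strand, at chr6:37870661-37870810 (plus strand) for Trim24 and chr7:13024002-13024151 (plus strand) for Trim28. Capitals mark the GC box GGGCGG and the CCAAT box CCAAT on either strand.
Trim24: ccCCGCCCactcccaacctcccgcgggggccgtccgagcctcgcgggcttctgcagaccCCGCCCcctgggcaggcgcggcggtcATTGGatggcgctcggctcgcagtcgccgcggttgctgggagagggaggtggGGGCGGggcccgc
Trim28: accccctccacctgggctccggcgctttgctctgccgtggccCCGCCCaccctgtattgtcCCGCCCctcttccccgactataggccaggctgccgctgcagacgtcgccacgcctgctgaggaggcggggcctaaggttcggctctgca
G and C make up 78.7% of the Trim24 stretch. Trim24 holds 3 GC boxes and 1 CCAAT box, and Trim28 holds 2 GC boxes and 0 CCAAT boxes. Over all 300-base promoters in the table the GC box was found in 35.7% and the CCAAT box in 37.4%, and over the 60 promoters of TRIM genes in 26 and 27. Such matches describe the letters only.

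The partners of these corepressors were read from a list of 14 genes. Of the 14, 7 were higher, 1 was lower and 6 were not called, with a median difference of 0.36. All 14 lay above the absent-gene level, where 15.3% of all genes were higher and 18.3% lower. The chromatin remodeller Atrx was highest at 1.41 ± 0.15 (limma adjusted p = 0.000166), followed by the methylation maintenance factor Uhrf1 at 1.07 ± 0.33 (0.0459) and the remodeller Chd3 at 0.66 ± 0.12 (0.00452). The heterochromatin protein 1 genes Cbx1 and Cbx3, the deacetylase Hdac1 and the Setdb1 partner Atf7ip were also higher, by 0.43 to 0.56. The ATPase Morc3 was lower, by -0.98 ± 0.21 (limma adjusted p = 0.00770). Setdb1 itself differed by -0.46 and was not called. Most of these differences were small, and the number higher fell to between 2 and 5 when 1 array was left out, with 2 without macrophage replicate 3, 3 without macrophage replicate 2, and 4 without dendritic replicate 3 or macrophage replicate 1.

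Trim62 and Trim59 were higher by less than 2-fold. Trim62, a PRY-SPRY ligase that ubiquitinates the antifungal adaptor Card9, had 6.31, 6.16 and 6.15 in the dendritic arrays, against 5.39, 5.45 and 5.48 in the macrophage arrays. These were the tightest replicates of the called genes, and the difference was 0.77 ± 0.12 (limma adjusted p = 0.00145). Trim59, a membrane-anchored ligase, had 6.51, 5.87 and 6.02 in the dendritic arrays, against 4.97, 5.37 and 5.70 in the macrophage arrays. The lowest dendritic and the highest macrophage array of Trim59 were close to each other. Its difference was 0.78 ± 0.22 (limma adjusted p = 0.0335). Trim59 was not called once dendritic replicate 1 was left out (limma adjusted p = 0.0780), nor without dendritic replicate 3 or without macrophage replicate 1 or 2. Its difference was 0.41 without replicate 1 of both populations (limma adjusted p = 0.101).

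The 3 genes lower in the dendritic population belong to 3 different classes. Trim13, a ligase anchored in the endoplasmic reticulum that takes part in the disposal of misfolded proteins, had 5.44, 5.10 and 5.13 in the dendritic arrays, against 6.15, 5.91 and 6.13 in the macrophage arrays. The difference was -0.84 ± 0.14 (limma adjusted p = 0.00260). Trim13 and Trim59 thus form the transmembrane class, with 1 gene in each direction.

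Trim36, a microtubule-binding ligase known from the sperm acrosome, had 6.38, 6.02 and 5.87 in the dendritic arrays, against 7.01, 6.77 and 6.70 in the macrophage arrays (-0.73 ± 0.16, limma adjusted p = 0.0110). It was the only called gene among 4 of its class, whose other members Trim9, Trim46 and Trim67 differed by -0.06 to 0.23. Trim37, the MATH domain ligase mutated in human mulibrey nanism, had 5.68, 5.68 and 5.44 in the dendritic arrays, against 5.97, 6.17 and 6.28 in the macrophage arrays. The difference was -0.54 ± 0.14 (limma adjusted p = 0.0220). Trim37 was not called if dendritic replicate 3 or macrophage replicate 2 or 3 was left out, nor with each array centred on its 75th percentile.

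The genes next to the called TRIM genes on the chromosome were read as well. Of the 20 protein-coding genes directly beside the 10 called genes in the GRCm38.p6 order, 19 were measured. Of these 3 were called (15.8%, where 21.6% of all genes were), each in the direction of its TRIM neighbour. Kpna4 beside Trim59 was higher by 0.87, Zfp362 beside Trim62 was higher by 1.44, and Spryd7 beside Trim13 was lower by -0.84. The 3 genes with the largest differences had no called neighbour: Trim7 lies between Trim41 (0.07) and Irgm1 (-0.43), Trim35 beside Ptk2b (0.25), and Trim24 beside Svopl (0.08).

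The genes next to human TRIM5 in kind form a run on mouse chromosome 7, in the order Trim6, Trim34a, Trim5, Trim12a, Trim34b, Trim12c, Trim30b, Trim30c, Trim30a and Trim30d. Human TRIM5 is a capsid-binding antiviral factor, and mouse Trim30a is known to curb NF-kB signalling by removing the adaptors Tab2 and Tab3. Of these genes 6 had a probe set of their own, and none was called by limma in the comparison of all arrays, while 3 had an unadjusted p under 0.05 (Trim30a, Trim30d and Trim6). The copies are similar in sequence, so their probe sets may share signal and their identities are uncertain.

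Trim30a (probe set 10566358) had 8.06, 7.08 and 6.93 in the dendritic arrays, against 8.76, 8.18 and 7.98 in the macrophage arrays. Dendritic replicate 1 reached into the macrophage range, and the difference of -0.95 ± 0.31 was not called (limma adjusted p = 0.0584). Trim30d had 6.75, 5.79 and 5.33 in the dendritic arrays, against 7.26, 6.60 and 6.85 in the macrophage arrays, a difference of -0.95 ± 0.33 (limma adjusted p = 0.0772). Both genes were lower in all 3 pairs of arrays with the same replicate number, a pairing that the labels do not state. The differences were -0.70, -1.10 and -1.05 for Trim30a and -0.51, -0.81 and -1.52 for Trim30d. A fit that blocks on replicate number called both lower (limma adjusted p = 0.00121 for Trim30a and 0.00862 for Trim30d), and likewise without dendritic replicate 1 (-1.30, 0.00382, and -1.34, 0.00304) and without replicate 1 of both populations (-1.08, 0.000707, and -1.16, 0.00173). Over the 17 alternatives Trim30a was called in 9 (adjusted p 0.000707 to 0.598) and Trim30d in 4 (0.00173 to 0.685).

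The other cluster genes had differences in both directions, and their values overlapped. Trim12c had 6.11, 5.13 and 3.91 in the dendritic arrays, against 5.76, 5.66 and 5.14 in the macrophage arrays, with the largest SD within a population of all 58 genes (-0.47 ± 0.46, limma adjusted p = 0.609). Without dendritic replicate 1 it still was not called (limma adjusted p = 0.0718), and its difference was 0.10 without dendritic replicate 3. Trim12a differed by -0.28 ± 0.23, Trim34a by 0.35 ± 0.26 and Trim6 by 0.54 ± 0.19 (limma adjusted p = 0.517, 0.466 and 0.0886). Trim34a was called without dendritic replicate 3, and Trim6 without macrophage replicate 2 and with 75th percentile centring.

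**Figure D3:**
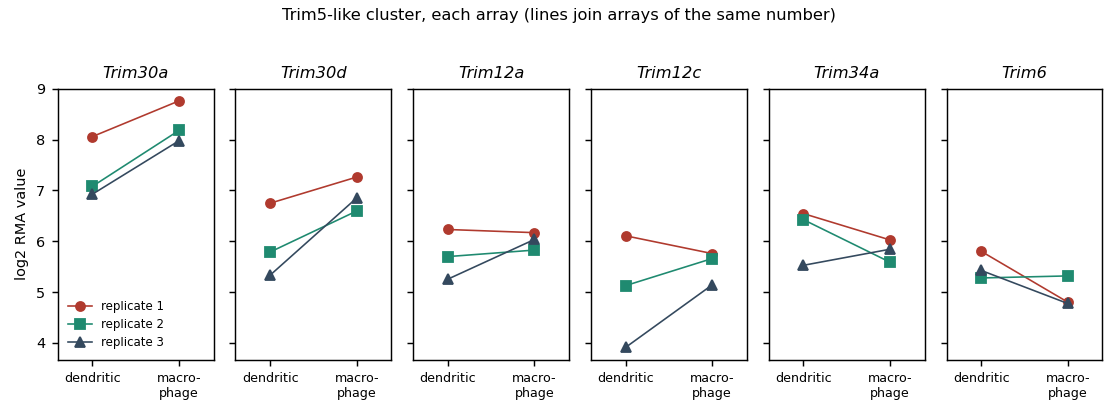
Log2 RMA value of the 6 measured Trim5-like cluster genes on each array, dendritic left and macrophage right, with lines joining arrays of the same replicate number. Replicate 1 is the highest dendritic array for all 6 genes; for Trim30a and Trim30d every line is lower at its dendritic end.

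Most genes of this cluster had the same highest array in each population. Dendritic replicate 1 was the highest dendritic array for 6 of 6 genes, where it was so for 32.1% of all genes, and dendritic replicate 3 was the lowest for 5, all but Trim6. In the macrophage population replicate 1 was highest for 5 of 6, again all but Trim6, and the lowest array was replicate 2 for 3 genes and replicate 3 for 3. The mean over the 6 genes was 6.58, 5.90 and 5.40 in the dendritic arrays and 6.46, 6.19 and 6.10 in the macrophage arrays. Neutrophil markers had the same order in the dendritic arrays, with means of 6.89, 6.36 and 6.09, and were highest on replicate 1 of the macrophage arrays too (7.20, 6.09 and 6.31). By gene, dendritic replicate 1 was highest for 7 of the 11 neutrophil markers and lowest for 3, and macrophage replicate 1 was highest for 10. The means over the 20 interferon response genes had the same order as the neutrophil means. They were 5.86, 5.74 and 5.65 in the dendritic arrays and 5.51, 5.29 and 5.36 in the macrophage arrays. The dendritic order of these means rests on Mx1 (9.45, 7.78 and 6.96) and Mx2 (6.36, 4.46 and 3.51), and does not hold without them. By gene, the highest dendritic array of these 20 was replicate 1 for 6, replicate 2 for 7 and replicate 3 for 7. In the macrophage arrays replicate 1 was highest for 10 of the 20. The part of the neutrophil markers or of the interferon response genes in the cluster's spread was not tested.

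Promoter windows are shown for an element found in 5 of the 6 measured cluster genes, all but Trim6. The interferon-stimulated response element, taken as GAAA, any 2 bases and GAAA, was searched on both strands of the RefSeq promoters, which run from 250 bases before the start to 50 after it (GRCm38.p6). It was found in 9 of the 60 promoters of 46 TRIM genes, where 1131 of all 32851 promoters in the table (3.44%) hold it. The 8 genes are Trim30a, with 2 annotated starts, Trim30d, Trim12a, Trim12c, Trim34a, Trim21, Trim26 and Trim2. The windows of all but Trim2 are shown, and for Trim30a that of each start. Each is 30 bases long, 5′ to 3′ on the gene's strand, with the element in capitals, which reads TTTC, any 2 bases and TTTC where it lies on the other strand. They are Trim30a at chr7:104465210-104465239 (minus strand) and, for its other start, chr7:104446104-104446133 (minus), Trim30d at chr7:104507871-104507900 (minus), Trim12a at chr7:104315466-104315495 (minus), Trim12c at chr7:104353359-104353388 (minus), Trim34a at chr7:104244457-104244486 (plus), Trim21 at chr7:102565447-102565476 (minus) and Trim26 at chr17:36836979-36837008 (plus).
Trim30a: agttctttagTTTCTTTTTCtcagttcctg
Trim30a, other start: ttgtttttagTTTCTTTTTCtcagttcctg
Trim30d: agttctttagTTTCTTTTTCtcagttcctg
Trim12a: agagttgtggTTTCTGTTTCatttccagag
Trim12c: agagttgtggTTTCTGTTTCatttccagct
Trim34a: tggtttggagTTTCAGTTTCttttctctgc
Trim21: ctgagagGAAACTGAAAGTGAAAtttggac
Trim26: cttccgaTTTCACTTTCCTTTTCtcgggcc
The first Trim30a window and the Trim30d window are identical, the second Trim30a window differs from them before the element, and Trim21 and Trim26 hold overlapping matches. None of the 8 genes was called by limma, with differences from -0.95 to 0.35, and 2 of them (Trim30a and Trim30d) had an unadjusted p under 0.05. These 2 were called lower in the fit blocked on replicate number (limma adjusted p = 0.00121 and 0.00862). Of the 10 called TRIM genes 7 have an entry in the promoter table, and 0 of these hold the element.

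Of 4 antiviral TRIM genes chosen as well known, Trim25, Trim21, Trim14 and Trim56, none was called by limma on all 6 arrays and none had an unadjusted p under 0.05. Trim25, which ubiquitinates the RNA sensor RIG-I, was bright in both populations, at 9.33, 8.80 and 8.85 in the dendritic arrays, against 8.88, 8.36 and 8.82 in the macrophage arrays (0.31 ± 0.19, limma adjusted p = 0.365). Its 95% interval reached from -0.13 to 0.75. Trim21, the cytosolic antibody receptor, had 6.87, 6.54 and 6.31 in the dendritic arrays, against 6.52, 6.36 and 6.26 in the macrophage arrays (0.20 ± 0.16, limma adjusted p = 0.533). Both genes overlapped between the populations.

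Trim14, an adaptor without a RING finger that acts at Mavs and cGAS, differed by -0.10 ± 0.13, with an interval from -0.38 to 0.18. Trim56, a ligase of the DNA sensing pathway, had 6.75, 6.21 and 6.07 in the dendritic arrays, against 6.66, 6.73 and 6.79 in the macrophage arrays. Its dendritic replicate 1 stood inside the macrophage range, and the difference of -0.39 ± 0.18 was not called (limma adjusted p = 0.197). It was called without dendritic replicate 1 (-0.59, limma adjusted p = 0.0104), without replicate 1 of both populations (0.00906) and with array weights.

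The remaining classes held no gene called by limma on all 6 arrays, and Trim32 and Trim29 had an unadjusted p under 0.05. The NHL repeat genes were led by Trim32, a ligase mutated in human limb-girdle muscular dystrophy, with 6.02, 5.43 and 5.77 in the dendritic arrays, against 6.37, 6.22 and 6.00 in the macrophage arrays (-0.46 ± 0.18, limma adjusted p = 0.109). Trim32 was called lower without dendritic replicate 1 (-0.60, limma adjusted p = 0.0341) and with array weights. The other NHL repeat genes Trim2, Trim3 and Trim71 differed by 0.05 to 0.24. The COS box genes Trim54, Trim55 and Trim63, which act in striated muscle, differed by under 0.1 in size, the largest being Trim55 with 3.703, 4.248 and 3.801 in the dendritic arrays, against 3.786, 3.689 and 3.998 in the macrophage arrays. By limma 0 of these 3 was called and 0 had an unadjusted p under 0.05. The single-gene classes of Trim23, Trim45 and Trim42 differed by 0.26, 0.21 and -0.07.

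Among the proteins without a RING finger, Trim29 was spread by 1 array. It had 4.17, 4.05 and 4.01 in the dendritic arrays, against 5.71, 4.74 and 4.17 in the macrophage arrays, and macrophage replicate 1 was far above the other two. The difference of -0.80 ± 0.32 was not called (limma adjusted p = 0.131). It was called in the fit blocked on replicate number (0.0455) and without macrophage replicate 3 (0.0204). Trim27, a PRY-SPRY ligase also known as the RET finger protein, had 7.07, 7.05 and 7.31 in the dendritic arrays, against 6.79, 6.52 and 6.87 in the macrophage arrays. These values do not overlap, and the difference of 0.41 ± 0.14 was not called (limma adjusted p = 0.0788), but the fit blocked on replicate number called it higher (0.0342), as did array weights and a repeated quantile normalization. The other PRY-SPRY genes, 22 in all with Trim7, Trim35 and Trim62, had a median of 0.18, and none was called lower.

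Probe sets that carry several symbols were kept out of the family. They number 6, with differences from -0.09 to 0.79 and a lowest limma adjusted p of 0.0753 over all probe sets. The one shared by Trim43a, Trim43b and Trim43c had 4.39, 4.53 and 5.21 in the dendritic arrays, against 4.11, 3.86 and 3.80 in the macrophage arrays (0.79, limma adjusted p = 0.0753). The 2 that name Trim5 differed by -0.04 and -0.07.

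Relatives that carry other names were read from a list of 11 genes, of which 1 was higher, 2 were lower and 8 were not called. Over all genes 9.98% were higher and 11.6% lower. Mefv, which encodes the inflammasome protein pyrin, was lower by -1.42 ± 0.33, at 5.94, 5.15 and 4.99 in the dendritic arrays, against 7.50, 6.35 and 6.49 in the macrophage arrays (limma adjusted p = 0.0139). Pml, the organiser of nuclear bodies, was lower by -0.69 ± 0.12 (limma adjusted p = 0.00252). Mid2, a microtubule-associated ligase, was higher by 1.06 ± 0.24 (limma adjusted p = 0.0123). Its macrophage mean of 3.10 and its dendritic mean of 4.16 both lie below the absent-gene level. Its paralogue Mid1 differed by -0.55 and was not called.

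The pathways in which TRIM ligases act were mixed. In the list of RIG-I, cGAS and Toll-like receptor adaptor genes 4 of 17 measured members were higher and 5 lower, with a median of -0.11. The list names 20 genes. The cGAS gene Mb21d1, the DNA sensing gene Tmem173 and Traf3 had no value under these symbols, so cGAS itself was not read. All 17 lay above the absent-gene level, where 15.3% of all genes were higher and 18.3% lower. The ubiquitin ligase Traf6 was higher by 1.73 ± 0.12 (limma adjusted p = 1.00e-05), Traf2 by 1.18 ± 0.16 and Tab3 by 0.54 ± 0.16. Tab2 was higher by 0.54 ± 0.14 (limma adjusted p = 0.0229). Mouse Trim30a removes the Tab2 and Tab3 proteins, whereas these values are of RNA. With 1 array left out, the number higher in this list was 2 to 4 and the number lower 4 or 5. The kinase Ikbke was lower by -1.90 ± 0.17, Ddx58, which encodes RIG-I, by -1.71 ± 0.15, and the adaptor Ticam2 by -1.42 ± 0.17.

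Of 20 interferon response genes 7 were higher and 2 lower, where 9.98% of all genes were higher and 11.6% lower. Mx1 (2.85 ± 0.51), Bst2 (1.89 ± 0.20) and Usp18 (1.69 ± 0.20) were highest, and Oas1a (-1.15 ± 0.19) and Zbp1 (-0.60 ± 0.15) were lower. The median of this list was -0.06, the other sign from its balance of calls, since most members that were not called lay below 0. Of 12 ubiquitin and ubiquitin-like conjugation genes 3 were higher and none lower: the ligase Herc6 (1.81 ± 0.23) and the E2 Ube2l6 (1.39 ± 0.21) and the E1 Uba7 (1.38 ± 0.13), which all serve the ubiquitin-like protein Isg15. Of 14 autophagy genes 1 was higher, the receptor Sqstm1 (0.84 ± 0.15), and 3 were lower, with Atg7 lowest (-1.47 ± 0.13), then Atg5 (-0.50 ± 0.14) and Map1lc3b (-0.46 ± 0.12). All measured conjugation and autophagy genes lay above the absent-gene level, where 15.3% of all genes were higher and 18.3% lower. The number of autophagy genes lower was 1 without dendritic replicate 2 or 3 or macrophage replicate 2 or 3, 2 without macrophage replicate 1, and 1 with 75th percentile centring.

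**Figure D4:**
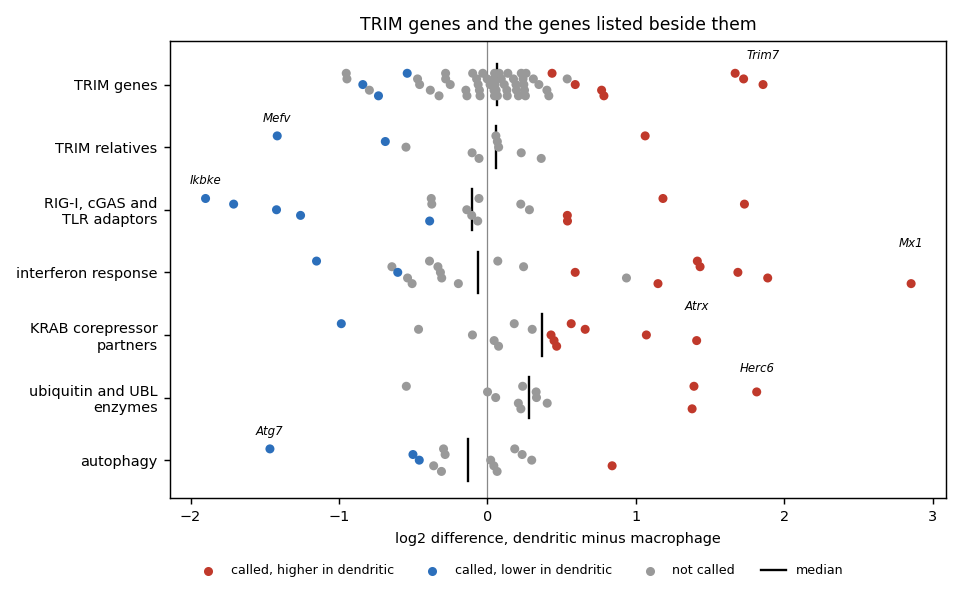
Log2 difference (dendritic minus macrophage) of the 58 TRIM genes and of each gene in the 6 lists beside them, with the list median as a bar and the gene of largest difference named. TRIM genes gather near 0 with a median of 0.06; the corepressor partners have the highest median, 0.36.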

How the data were processed

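The authors deposited log2 values for 35556 probe sets on 6 arrays. Per the submitters' processing notes these were made by RMA in R 3.0.2, which corrects background, normalizes by quantiles and summarizes probes. Which arrays entered that run, any filter and the genome build are not stated, so coordinates are given only for RefSeq sequences (GRCm38.p6).

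Gene names came from the platform annotation: 21789 probe sets hold 1 symbol, 1621 several, and 12146 are unnamed here. Of the named, 21698 were found in the RefSeq gene table and 0 symbols changed. For 999 genes with several probe sets the one with the highest mean was used, which left 19938 genes. Array medians over all probe sets were 4.79 to 4.96. Precision is limited by the number of arrays.

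The test was limma 3.58.1 (lmFit, eBayes, 2-sided) in R 4.3.3 on all 6 arrays, with population as the single term and without a filter, with Benjamini-Hochberg adjustment over all genes. It was tested on simulated data with the spread of the real genes. Of 67 genes given a log2 difference of 0.5 it called 1, and of 67 given a difference of 1 it called 36. Of 66 given a difference of 2 it called 63, with 4 false calls. Only these genes of the 19938 were given a difference, whereas 4312 genes were called in the data. The adjustment over all genes was therefore stricter in the simulation, and its rates may lie below those of the real comparison. A gene not called may still differ by 0.5 or more. Python 3.11.15, pandas 2.3.3 and matplotlib 3.10.9 prepared tables and figures. The TRIM members, gene lists and named genes were chosen with earlier results of these data known. Every member may be named; array values are given for called members, for the member of largest difference in each class of 3 or more, and for well-known antiviral and corepressor genes, and partner lists name up to 3 called genes in each direction. A few others were named after their values were seen.

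The titles number the arrays 1 to 3 in each population. Over genes, the deviation of each array from its population mean correlated with that of its same-numbered partner at 0.385, 0.147 and 0.272. All exceed 0.1, so the numbers were taken to pair the arrays, and a second fit blocked on replicate number. That cutoff set apart number 1 only, because crossing numbers 2 and 3 gave correlations that passed it too. The crossed values were 0.155 for dendritic 2, slightly above its same-numbered value, and 0.128 for dendritic 3. The labels state no pairing, so the blocked fit rests on an assumed pairing of numbers 2 and 3. The alternatives were each array left out, the block, quantile normalization again, 75th percentile centring, filters at the 30th percentile and the median of level, the mean of a gene's probe sets, all probe sets, a trended variance, array weights and a test against a log2 difference of 0.5; leaving out replicate 1 of both populations was added after seeing the data.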

Additional observations from a re-analysis of the deposited data

How the results depend on the processing

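Over the 17 alternatives no called TRIM gene changed sign. Trim7, Trim35 and Trim24 were called wherever tested, and Trim62, Trim13 and Trim36 in all but the test against a log2 difference of 0.5. Trim59, Trim33, Trim28 and Trim37 lost their call in 5 to 9 alternatives. The family's count of genes higher was 7, and 4 to 6 when 1 array was left out, with 4 without dendritic replicate 1. It was 4 when all probe sets were tested and 3 in the test against 0.5, where more features or a larger null difference raise the bar by construction. The count lower was 3, and 2 to 7 when 1 array was left out, with 7 without dendritic replicate 1. It was 6 in the fit blocked on replicate number (the replicate block), 6 without replicate 1 of both populations, 7 with array weights and 0 in the test against 0.5 (2-sided limma, where 7 of the 58 genes had an unadjusted p under 0.05 in the test against 0). The block added Trim30a, Trim30d and Trim29 to the genes lower and Trim27 to those higher, and changed no other TRIM call. Its pairing of numbers 2 and 3 is assumed. The number of genes called in all was 4312, 3311 to 4625 with 1 array left out, and 1787 in the test against 0.5. The family's median of 0.06 moved by less than the spread between arrays throughout (0.02 to 0.16), and 75th percentile centring, which raised the median of all genes by 0.10, gave 0.16. The number of genes higher was 6 or 7 in the interferon response list and 1 to 7 among the corepressor partners. Signal over background limits the 20 genes whose mean over both populations is dim, though the dendritic mean of Trim45 (4.72) and Trim66 (4.67) and the macrophage mean of Trim29 (4.87) lie above the absent-gene level. The cause of the array differences was not tested.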
